A study of Mus musculus with 8 samples.

Results

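The 4 Id genes (Id1, Id2, Id3 and Id4) and the 2 inhibitory Smads (Smad6 and Smad7) were followed in the mesenchyme of the embryonic mouse lung, the supporting tissue that surrounds the airway epithelium. They were taken as every probe set that the platform annotation pairs with one of these 6 symbols. That gave 11 probe sets, 3 each for Id2 and Id4, 2 for Smad7 and 1 each for Id1, Id3 and Smad6. All 11 passed the filter on low signal, so all 6 genes are among the 16112 genes tested, of 18193 with a probe set of their own. Expression was measured on 8 Affymetrix arrays, in 4 groups of 2, from CD1 embryos at e11.5 to e12.5. Tip mesenchyme surrounds the growing branch ends and stalk mesenchyme the more proximal airway, and RNA of both was taken directly after dissection. Other stalk pieces spent 12 h on culture plastic, in control growth medium or in the same medium with the signalling protein Wnt1 at 400 ng/ml. The labels name no genetic change in any group, and they do not say whether the replicates were separate litters. The p-values therefore reflect the spread between arrays alone, and that spread may be technical.

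Bone morphogenetic proteins (Bmps) and Tgf-beta bind pairs of membrane receptor kinases, which phosphorylate receptor Smads. These join the common Smad4 and enter the nucleus. The Id genes, Smad6 and Smad7 are among the genes switched on most directly by the Smads of Bmp, of Tgf-beta or of both. Id proteins have a helix-loop-helix domain but no DNA-binding region, and they hold E proteins and tissue-specific bHLH factors away from DNA. Smad6 and Smad7 block the receptors and the receptor Smads, Smad6 mainly for Bmp and Smad7 for both branches, and so close a feedback loop. In the developing lung Bmp4 is made at the branch tips, and Id2 is known as a marker of the tip epithelium.

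The start-site sequences of 3 Id genes are given so that the GC-rich element bound by Bmp Smads can be seen beside their readouts. RefSeq (build GRCm38.p6) supplied 300 bases for 4 of the 6 genes, from 250 before to 50 after the start (Id2, Id3, Id4 and Smad6). Capitals mark GGCGCC, the same on both strands, and CAGAC, the Smad box (GTCTG on the other strand). Neither motif overlaps the other in these windows.
Id2, chr12:25096043-25096342, minus strand: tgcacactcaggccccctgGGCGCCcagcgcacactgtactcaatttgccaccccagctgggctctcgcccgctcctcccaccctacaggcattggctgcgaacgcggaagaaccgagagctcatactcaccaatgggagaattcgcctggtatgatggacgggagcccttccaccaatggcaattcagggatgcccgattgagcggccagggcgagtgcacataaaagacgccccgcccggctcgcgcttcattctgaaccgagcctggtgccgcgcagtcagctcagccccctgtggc
Id3, chr4:136143572-136143871, plus strand: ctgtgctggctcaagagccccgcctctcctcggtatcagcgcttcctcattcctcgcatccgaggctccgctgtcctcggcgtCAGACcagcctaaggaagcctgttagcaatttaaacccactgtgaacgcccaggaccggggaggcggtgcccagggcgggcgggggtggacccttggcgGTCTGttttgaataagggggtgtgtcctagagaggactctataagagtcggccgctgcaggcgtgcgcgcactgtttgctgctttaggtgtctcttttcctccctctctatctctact
Id4, chr13:48260866-48261165, plus strand: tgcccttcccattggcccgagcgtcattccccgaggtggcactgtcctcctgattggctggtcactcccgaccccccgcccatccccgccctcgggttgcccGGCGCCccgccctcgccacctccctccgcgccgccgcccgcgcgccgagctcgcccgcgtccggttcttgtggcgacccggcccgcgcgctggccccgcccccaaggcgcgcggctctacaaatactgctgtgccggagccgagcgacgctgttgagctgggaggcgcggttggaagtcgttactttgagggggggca
Id2 and Id4 had 1 GGCGCC each, and Id3 had 2 copies of CAGAC. Smad6 had neither. Of 32851 promoters of this length, 11.9% held GGCGCC and 49.6% held CAGAC, and these windows were richer in G and C (60% for Id3 to 73.3% for Id4) than the median promoter (52.7%). A match describes the sequence and is not a measured binding site. No build is given with the array values, and the coordinates belong to the RefSeq sequences alone.

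The culture arrays stood apart from the uncultured ones. Their median signal was 149 to 299 against 76.5 to 99.8, although the 2% trimmed mean was the same on every array. The hybridization control probe sets had a median of 2.98 to 11.9 times their uncultured mean in culture, against 0.56 to 1.20 without culture. The Actb probe sets read 6.81 to 24.4 times brighter at the 3' than at the 5' end in culture, against 2.02 to 4.52 times in uncultured tissue, a ratio that rises with RNA breakdown and short labelling products. Of 9 lung mesenchyme markers, among them Tbx4, Tbx5, Foxf1 and Pdgfra, 9 in tip and 8 in stalk had a mean above 299, the highest array median. Of 9 epithelial markers, Krt8 and Krt18 were above 299 in both tip and stalk, at 486 to 1119 and 496 to 1046 on the uncultured arrays. The other 7, among them Nkx2-1, Cdh1 and Sftpc, summed to 465 to 575 there, with Epcam at 136 to 238. Markers of other cell types were present too. On the uncultured arrays erythroid markers summed to 66087 to 116697 and 10 endothelial markers to 5372 to 10746. Of 7 mesothelial markers 6 in tip and 4 in stalk had a mean above 299, and of 7 macrophage markers 4 and 5. The dissected tissue therefore had the labelled markers, but beside those of other cells. In control culture 6 of the 9 mesenchyme markers fell (limma) and 2 rose, where 9.26% of all genes fell and 17.1% rose. The summed signal of 7 smooth muscle markers was 110601 or more on every culture array, against 5692 or less without culture. The part of these shifts in the member values was not tested.

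Id1 was the 1 member of 6 called in any comparison, higher in stalk cultured with Wnt1 than in uncultured stalk. Its signal was 1369 and 1087 in tip (replicates 1 and 2) and 967 and 904 in stalk. In control culture it was 1561 and 982, and with Wnt1 it was 2222 and 2375. Both Wnt1 arrays thus lay above all 6 other arrays, while tip and control culture overlapped and both lay just above stalk. Group means ordered stalk (936 ± 44.7), tip (1228 ± 199.98), control culture (1271 ± 409.5) and Wnt1 culture (2299 ± 108; SD, n = 2). The log2 fold change of Wnt1 culture minus stalk was 1.26 ± 0.34 (SE), a 2.39-fold rise (limma, adjusted p = 0.0305), where 9.35% of all genes were called higher and 16.2% in either direction. The 95% interval ran from 0.52 to 1.99, and the median of all genes was 0.35.

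Between Wnt1 and control culture the medium differed only by Wnt1, but Wnt1 replicate 2 also differed in its Actb ratio (6.81, against 23.3 and 24.4 in control). Id1 was at 0.87 ± 0.34 (95% interval 0.13 to 1.60) in this comparison and missed the threshold (limma, unadjusted p = 0.0242, adjusted p = 0.56). None of the 6 members passed there, 1 had an unadjusted p under 0.05, and 0% of all genes passed (8.05% at the unadjusted p). Both Wnt1 arrays lay above both control arrays, as in 10.1% of all genes, and 26% did not overlap in either direction. Control culture minus stalk gave 0.39 ± 0.34, and -0.07 when each array was centred on its median. Without control replicate 1 it was 0.067 and the Wnt1 minus control value 1.19, and without control replicate 2 they were 0.71 and 0.55. Both control arrays lay above both stalk arrays, as in 46.1% of all genes (25.4% lay below and 71.5% did not overlap in either direction). The Id1 call against stalk was lost in 8 of 24 alternatives, over which the change stayed between 0.93 and 1.58. It was lost without tip replicate 1 or 2 (limma, adjusted p = 0.0621 and 0.0617), without stalk replicate 1 or 2 (0.154 and 0.215) and without Wnt1 replicate 1 (0.0778). It was also lost with median centring (limma, 0.132), without the intensity trend (0.0604) and with a signal floor (0.0807). Both culture groups were compared with the same stalk arrays, so their values are not independent. In such tissue pieces a gene that rises in each cell and a larger share of cells that express it cannot be told apart.

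**Figure D1:**
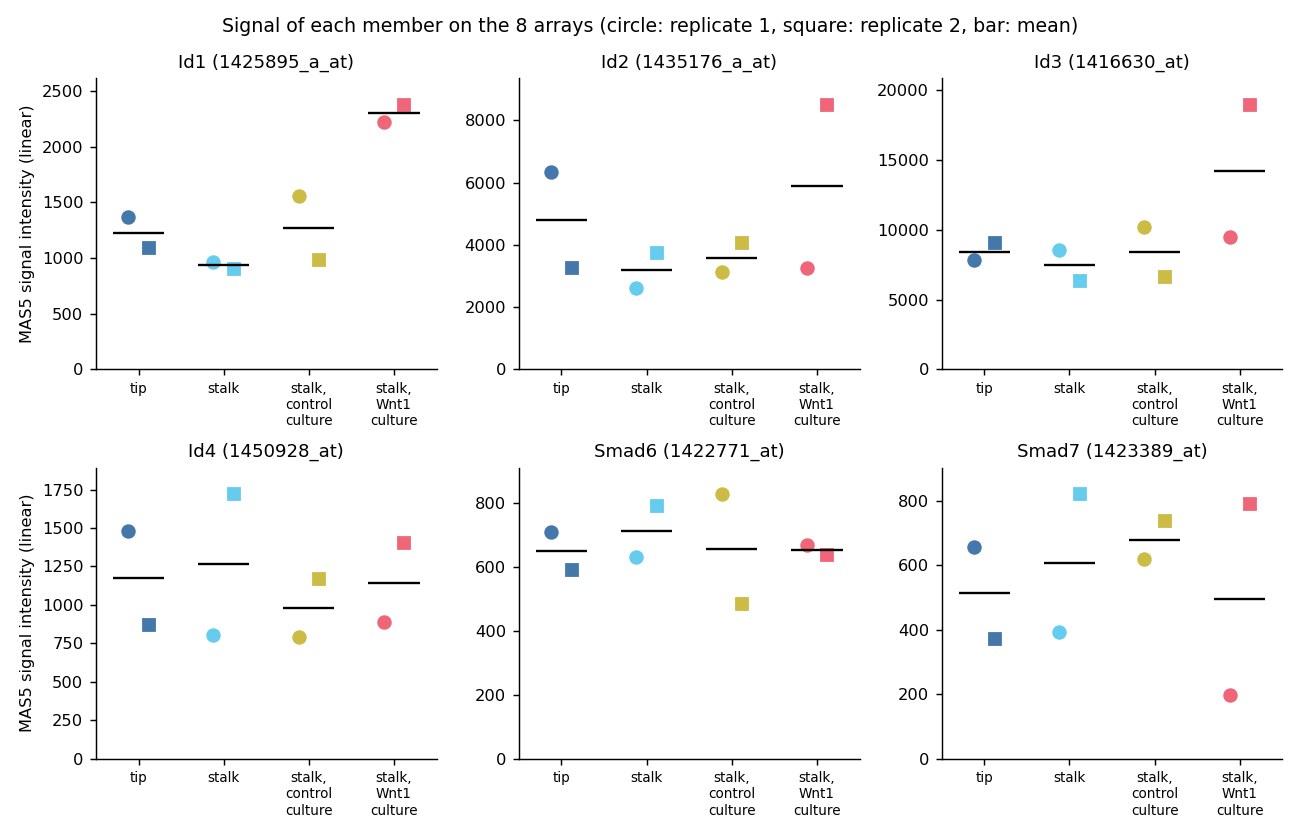
MAS5 signal intensity (linear scale, y axis from 0) of the 6 members on the 8 arrays, 1 panel per gene, with groups on the x axis, circles for replicate 1, squares for replicate 2 and bars for group means. Both Wnt1 arrays of Id1 (2222 and 2375) sit above all others, while for Id2 and Id3 the high value comes from Wnt1 replicate 2 alone.

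Id3 and Id2, which act on the same E proteins as Id1, were high on 1 Wnt1 array only. Id3 was at 7825 and 9019 in tip, 8535 and 6346 in stalk, 10205 and 6647 in control culture, and 9494 and 18948 with Wnt1. The first Wnt1 array lay between the 2 control culture arrays, and the second was the highest of all 8. The Id3 change of Wnt1 minus control culture was 0.70 ± 0.42 (SE, limma, adjusted p = 0.71), with -0.10 between the arrays numbered 1 and 1.51 between those numbered 2. Without Wnt1 replicate 2 it was 0.20. Against stalk, Wnt1 culture was at 0.86 ± 0.42 (limma, adjusted p = 0.15), with both Wnt1 arrays above both stalk arrays, and control culture was at 0.16 ± 0.42. Groups did not overlap in that direction for 2 of 6 members, Id1 and Id3, and for 41.5% of all genes (66.9% in either direction).

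Id2 was measured best by probe set 1435176_a_at. It read 6339 and 3254 in tip, 2628 and 3739 in stalk, 3127 and 4050.3 in control culture, and 3271 and 8502 with Wnt1. Tip replicate 1 and Wnt1 replicate 2 were high, and each had a replicate within the range of the other groups. The changes were 0.53 ± 0.47 between tip and stalk, 0.56 ± 0.47 between Wnt1 and control culture, 0.18 ± 0.47 between control culture and stalk and 0.74 ± 0.47 between Wnt1 culture and stalk (SE). None was called (limma, adjusted p = 0.26 to 1), and the Wnt1 difference in culture was -0.12 without Wnt1 replicate 2. Leaving out 1 array at a time moved the tip minus stalk value from 0.053 (without tip replicate 1) to 1.01 (without tip replicate 2), and the Wnt1 culture minus stalk value from 0.060 (without Wnt1 replicate 2) to 1.43 (without Wnt1 replicate 1). The other probe sets were dim. 1453596_at stayed under the highest array median on all 8 arrays and 1422537_a_at on 6, and their values are not read further.

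Wnt1 replicate 2, the array behind the high Id2 and Id3 values, also differed in other measures. Its median signal was 149, against 209 to 299 for the remaining culture arrays, and its Actb ratio was 6.81, against 21.2 to 24.4. The epithelial keratins Krt8 and Krt18 read 4384 and 6905 there, against 827 to 1399 and 961 to 1965 on those 3 arrays, while the epithelial adhesion gene Epcam read 838, against 825 to 970 (969.7). The 9 epithelial markers summed to 12638 on that array and to 4790 to 5668 on the other culture arrays (4789.8 at the lowest). Krt8 and Krt18 carried that sum: the other 7 markers summed to 1349 on this array and to 2304 to 3002 on the others, and 5 of the 7, Nkx2-1 and Sftpc among them, were lowest there. Their part in the Id2 and Id3 values was not tested. Id1 was high on both Wnt1 arrays, and without Wnt1 replicate 2 it was at 1.21 against stalk (limma, adjusted p = 0.0361), a fit that assumes the lone Wnt1 array to vary like the other groups.

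Id4 gave opposite readings on its 3 probe sets. Probe set 1450928_at, the one with the highest mean, read 1479 and 867 in tip, 806 and 1719.5 in stalk, 790.5 and 1169 in control culture, and 889 and 1402 with Wnt1. The replicates of each group spanned much of the whole range, and no comparison was called (limma, log2 fold changes -0.28 ± 0.44 to 0.21 ± 0.44, SE). Probe set 1423260_at read 544 and 449.7 in tip and 345 and 495 in stalk, but 1954 and 2079 in control culture and 1223 and 1757 with Wnt1. All 4 culture arrays lay above all 4 uncultured ones. Probe set 1423259_at read 948 and 1204 in tip, 707 and 1498 in stalk, 346 and 566 in control culture, and 393 and 1812 with Wnt1, so that control culture lay below stalk.

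In a fit over all 29333 probe sets, 1423260_at was called higher in control culture than in stalk, at 2.17 ± 0.36 (SE, limma, adjusted p = 0.0062), where 13.1% of probe sets were called higher. It was also called in Wnt1 culture, at 1.72 ± 0.36 (limma, adjusted p = 0.0167), where 5.48% were. That made 1 of 11 member probe sets called in control culture, where 20.5% of all probe sets were called, and 2 of 11 in Wnt1 culture (10.4%), the second being that of Id1. The same 2 comparisons gave -0.28 and -0.08 for 1450928_at and -1.14 and -0.26 for 1423259_at, none called. The signal of 1423260_at divided by that of 1450928_at went from 0.288 to 0.518 on the 4 uncultured arrays to 1.25 to 2.47 on the 4 culture arrays, so these probe sets changed unequally. Their positions in the transcript were not given. The spread over the Id4 probe sets in control culture minus stalk, 3.31 on the log2 scale, was reached by 5.76% of the 7480 genes with several tested probe sets. Of 1929 such genes called higher on 1 probe set, 39.6% had a negative change on another. The annotation credits all 3 Id4 probe sets to the same sequence record. The 3' to 5' ratio of Actb moved with culture as well, and its part in the Id4 readings was not tested. The call in control culture was lost without stalk replicate 1 or 2 (limma, adjusted p = 0.0718 and 0.0608) and with median centring (0.0579), as was that in Wnt1 culture (0.16, 0.111 and 0.123), there also with the floor (0.0638). A direction for Id4 in culture is therefore not given.

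**Figure D2:**
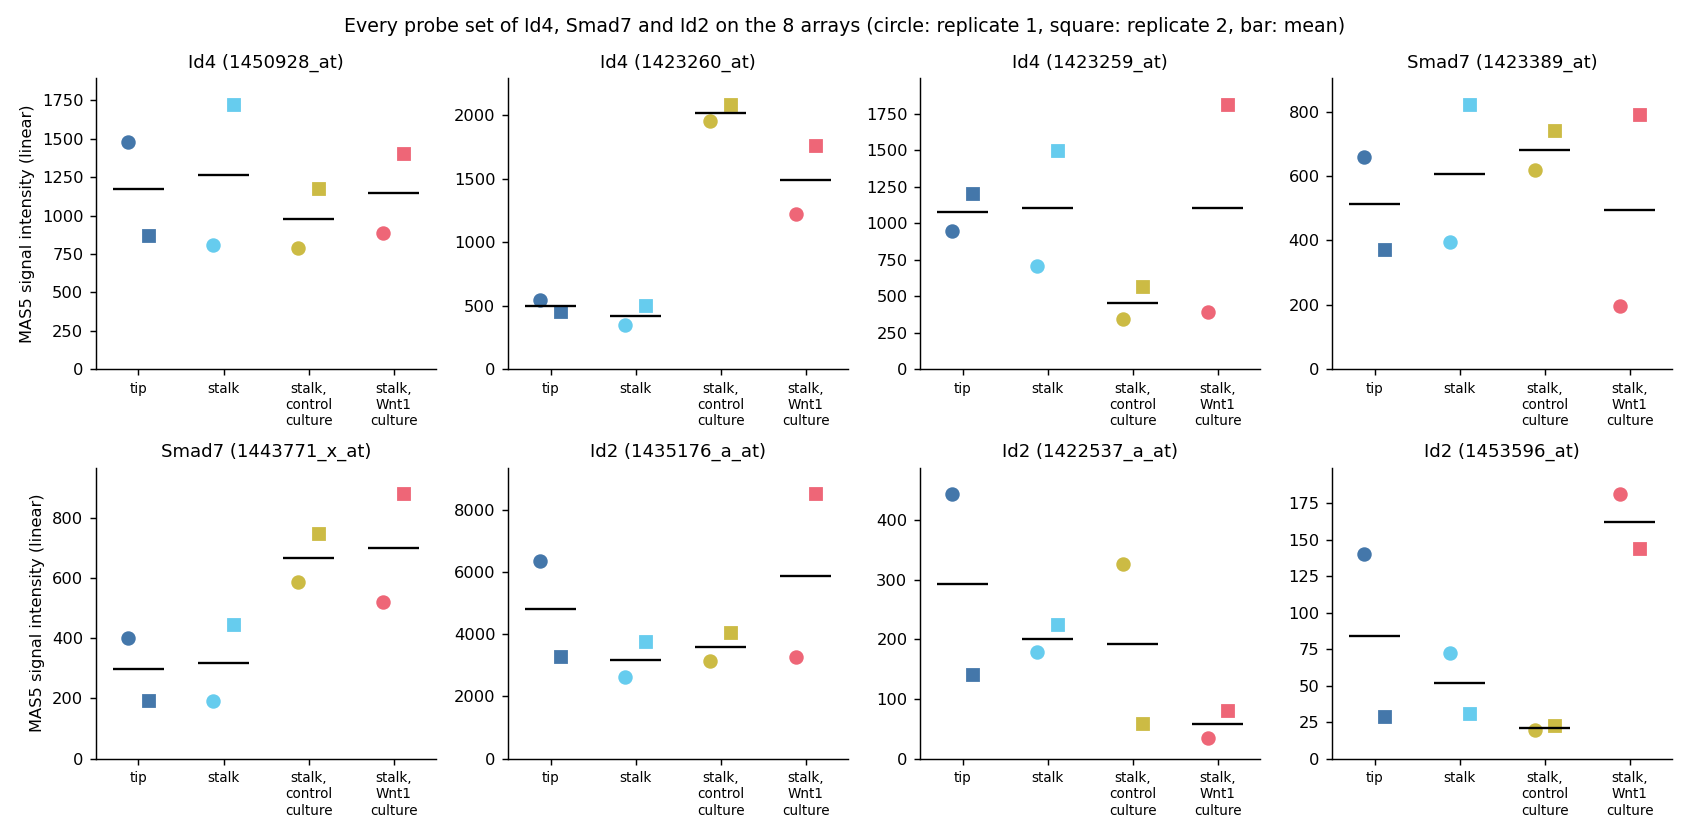
MAS5 signal intensity (linear scale, y axis from 0) of every probe set of Id4, Smad7 and Id2 on the 8 arrays, with groups on the x axis, circles for replicate 1, squares for replicate 2 and bars for group means. Id4 probe set 1423260_at is at 345 to 544 without culture and 1223 to 2079 in culture, while on its other probe sets stalk and Wnt1 culture overlap.

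Smad6, the inhibitory Smad of the Bmp branch, had a largest change smaller in size than that of any other member, though not the smallest in each comparison. It read 708 and 591 in tip, 632 and 791 in stalk, 827 and 485 in control culture, and 669 and 636 with Wnt1. The 2 control culture arrays were the highest and the lowest of all 8, so every group overlapped with control culture. Its 4 log2 fold changes ran from -0.15 ± 0.38 to 0.04 ± 0.38 (SE, limma), none called, and each changed sign under at least 1 alternative. The 95% intervals reached from -0.96 at the lowest to 0.85 at the highest. Smad6 is known to be high in endothelium. The summed signal of 10 endothelial markers was 8932 to 10746 in stalk and 5372 to 7780.3 in tip, but 2276 to 2288 in control culture and 1098 to 2188 with Wnt1. Of 9 endothelial markers tested, 6 fell in control culture (limma), where 9.26% of all genes fell. Smad6 was at -0.15 there, with a 95% interval from -0.96 to 0.67. The part of endothelial cells in the Smad6 values was not tested.

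Smad7, which restrains both the Bmp and the Tgf-beta branch, varied more between replicates than between groups. Probe set 1423389_at read 658 and 370.1 in tip, 395 and 821 in stalk, 620.2 and 738 in control culture, and 198 and 791 with Wnt1. Its replicates differed about as much within tip, stalk and Wnt1 culture as between any groups. The largest change was -0.68 ± 0.56 for Wnt1 minus control culture (SE, limma, adjusted p = 0.83), and it was 0.21 without Wnt1 replicate 1, the array at 198. Probe set 1443771_x_at read 403 and 191 in tip, 190.3 and 446 in stalk, 587 and 746 in control culture, and 521 and 879 with Wnt1. All 4 culture arrays lay above all 4 uncultured ones, at 1.06 ± 0.49 and 1.09 ± 0.49 for control and Wnt1 culture minus stalk, neither called (limma, adjusted p = 0.13 and 0.14 over probe sets). The suffix x marks a probe set some of whose probes may bind other transcripts. The 1423389_at values of the same comparisons were 0.23 and -0.45, so the probe sets of Smad7 differed in culture too.

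**Figure D3:**
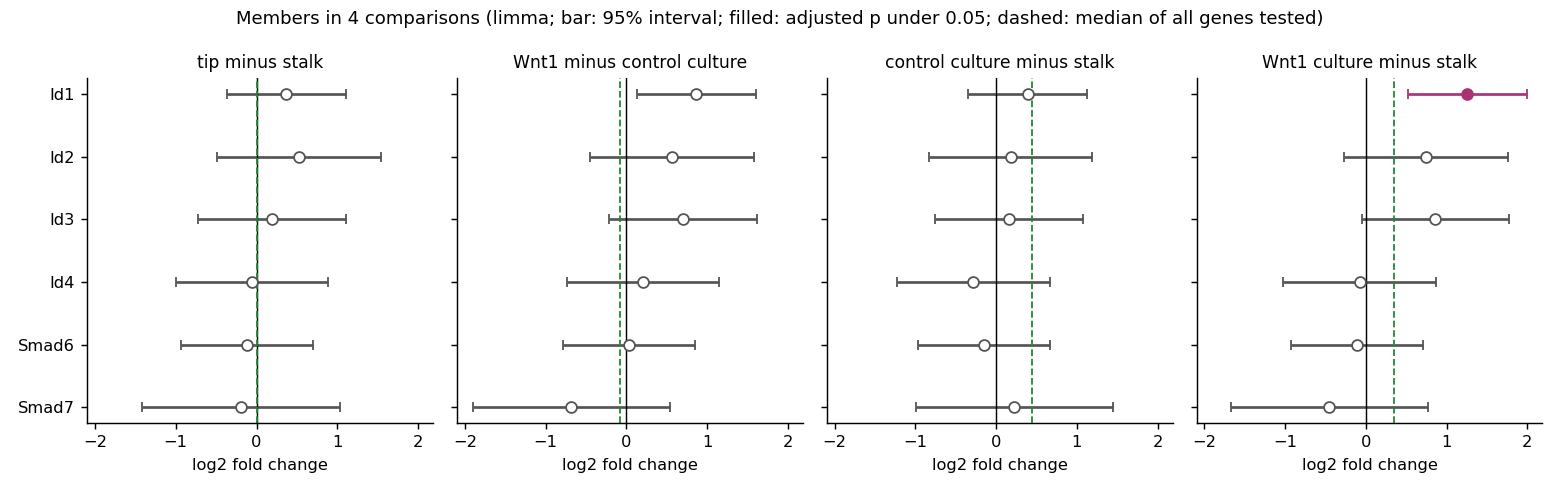
Log2 fold changes of the 6 members (x axis, on the log2(signal + 44) scale) in 4 comparisons, with 95% intervals from limma as bars, filled points for an adjusted p under 0.05, and a dashed line at the median of all 16112 genes. Id1 in Wnt1 culture minus stalk, at 1.26, is the only filled point, and every interval but 2, both of Id1, crosses 0.

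Between tip and stalk, none of the 6 members was called (limma, 0 also at an unadjusted p under 0.05), where 0% of all genes passed and 0.565% had an unadjusted p under 0.05. The changes were 0.37 ± 0.34 for Id1, 0.53 ± 0.47 for Id2, 0.19 ± 0.42 for Id3, -0.06 ± 0.44 for Id4, -0.12 ± 0.38 for Smad6 and -0.19 ± 0.56 for Smad7 (SE). Their median was 0.07, and that of all genes 0.01. Id1 was the only member with both tip arrays above both stalk arrays, a pattern seen in 18.2% of all genes (34.4% without overlap in either direction). For Id2, Id4 (1450928_at), Smad6 and Smad7, tip replicate 1 and stalk replicate 2 were both higher than tip replicate 2 and stalk replicate 1. Id3 ran the other way on these arrays. Immediate early genes, which respond within minutes to handling or serum, split the uncultured arrays into the same higher and lower pair as Id2. The summed signal of 8 of them (among them Fos, Egr1 and Jun) was 22582 and 30458 on the first pair and 5215 and 5061 on the second. In culture the sum was 21556 and 7648 in control culture and 21713 and 12533 with Wnt1 (replicates 1 and 2). Smad6 shared this order, higher on replicate 1 of both culture groups. Id2, Id4 (1450928_at) and Smad7 did not, and were higher on replicate 2 of both. The part of the early gene response in the member values was not tested. Between arrays of the same number the Smad7 difference was 0.68 for number 1 and -1.06 for number 2, and that of Id4 0.84 and -0.95.

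In control culture minus stalk, likewise, none of the 6 members was called (limma, 0 also at an unadjusted p under 0.05), although 26.4% of all genes were called and 43.2% had an unadjusted p under 0.05. The members' median was 0.17 and that of all genes 0.45. The all-gene median was -0.05 with a stricter filter (above 158 on 4 arrays) and 0.03 with quantile normalization. Whether the 6 genes lay lower or higher than other genes therefore depends on the reference. With median centring, which uses all genes past the reported filter, Id1, Id2, Id3 and Smad7 were at -0.07, -0.28, -0.30 and -0.24. In Wnt1 culture minus stalk the members' median was 0.33, beside 0.35 for all genes (-0.08 with the stricter filter). There 1 of 6 was called, and 1 of 6 had an unadjusted p under 0.05, as for 37.5% of all genes.

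Several other genes of the pathway were called in culture. Of 12 Bmp and Tgf-beta receptors, 7 fell and none rose in control culture, where 9.26% of all genes fell. The median was -1.44. Bmpr1a, a type I Bmp receptor, went from 3681 and 2925 in stalk to 586 and 1195 (log2 fold change -1.91 ± 0.38, SE, limma, adjusted p = 0.0093). Tgfbr3, a co-receptor, was at -2.46 ± 0.51, Tgfbr1 at -1.88 ± 0.42 and the activin receptor Acvr2b at -1.47 ± 0.35. In Wnt1 culture 7 of 12 fell as well, where 6.88% of all genes fell, with Bmpr2 at -2.00 ± 0.46. The count in control culture was 0 without stalk replicate 1 or without stalk replicate 2, 3 without control replicate 1, 2 with quantile normalization or a signal floor, and 1 (median -0.25) with the mean of each gene's probe sets. In Wnt1 culture it was 2 without stalk replicate 1 or 2, 4 without Wnt1 replicate 1 and with the mean of probe sets, 3 with quantile normalization and 2 with the floor.

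Among 14 receptor Smads, Smad4 and their regulators, 6 fell and 1 was called higher in control culture (9.26% and 17.1% of all genes), and 4 fell in Wnt1 culture (6.88%). Smad5, a carrier of the Bmp signal, was at -2.58 ± 0.41 and -3.09 ± 0.41, and Smad3, of the Tgf-beta branch, at -1.64 ± 0.37 and -1.60 ± 0.37 (SE, control and Wnt1 culture minus stalk). Smurf2, a ubiquitin ligase that Smad7 brings to the receptors, was at -1.65 ± 0.40 and -1.70 ± 0.40. The gene called higher was Smad9, a Bmp Smad known to be Bmp-induced, which read 11.9 and 18.5 in stalk and 362 and 348 in control culture. Smad9 passed the filter (above 96.6 on 2 arrays) only through the culture arrays, so its call is selected by the filter and no fold is given. The same holds for 4 other genes called higher in culture, namely Sostdc1, Dlx5, Ltbp2 and Hand1. The count in control culture was 0 without stalk replicate 1 or 2, 1 without control replicate 1 or with quantile normalization, 2 with the floor and 3 with the mean of probe sets. In Wnt1 culture it was 1 without either stalk array, without Wnt1 replicate 1, with quantile normalization and with the floor, and 2 with the mean of probe sets.

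Of 16 Bmp ligands and secreted antagonists tested, 4 were called higher, Sostdc1 among them, and 1 lower in control culture (17.1% and 9.26% of all genes). With Wnt1, 3 were called higher and 1 lower (9.35% and 6.88% of all genes). Bmp2, a ligand, went from 64 and 241 (64.2 and 240.8) in stalk to 651 and 763 in control culture (2.09 ± 0.50) and 657 and 919 with Wnt1 (2.23 ± 0.50). The antagonists Grem1 and Fst rose as well, Grem1 by 2.55 ± 0.42 and 2.61 ± 0.42, Fst by 2.27 ± 0.48 and 1.69 ± 0.48. Bmp5, another ligand, fell (-1.87 ± 0.44 and -2.72 ± 0.44). The count of genes called higher was 0 in both culture groups without either stalk array and with the floor, and 1 with quantile normalization. It was 2 in control culture without control replicate 1.

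Other genes known to be induced by the pathway were called in both directions. Of 8 such Bmp-induced genes tested, 2 fell in control culture (Sox4 at -2.70 ± 0.32 and Hey1 at -1.57 ± 0.47, SE, limma), where 9.26% of all genes fell. In Wnt1 culture 1 fell (Sox4), a share near the 6.88% of all genes. The genes called higher, Dlx5 and Smad9 in control culture and Dlx5 with Wnt1, were ones that passed the filter only through culture. Hey1, a bHLH repressor also induced by Notch, read 280 (279.7) and 393 in stalk, 84 and 80 (84.4 and 80.4) in control culture, and 346 and 339 with Wnt1. Its 2 Wnt1 arrays lay above both control culture arrays (1.61 ± 0.47, limma, adjusted p = 0.55), as in 10.1% of all genes. They lay between the 2 stalk arrays, whereas those of Id1 lay above stalk. In Wnt1 minus control culture 4 of the 8 Bmp-induced genes had positive and 4 negative changes, with a median of 0.01. Of 7 Tgf-beta-induced genes tested, 4 were called higher and 1 lower in each culture group, against 17.1% and 9.26% of all genes in control culture and 9.35% and 6.88% with Wnt1. Without Ltbp2, which passed the filter only through culture, 3 were called higher. Ccn2, a matrix-associated protein, was at 3.38 ± 0.68 and 3.83 ± 0.68, Pmepa1, an inhibitor of Smad signalling, at 1.13 ± 0.35 and 1.37 ± 0.35, while Tgfbi, a matrix protein, was at -1.62 ± 0.36 and -2.80 ± 0.36. The Tgf-beta-induced count was 0 in both culture groups with the floor, 1 in control and 2 in Wnt1 culture with quantile normalization, and 2 in both with median centring. The Bmp-induced count was 0 in both with quantile normalization and with the stricter filter. The counts of genes called higher were 0 to 2 for both lists without stalk replicate 1, without stalk replicate 2, without tip replicate 1 or without tip replicate 2. In control culture the Bmp-induced count was 0 without control replicate 1 and the Tgf-beta-induced count 1 without control replicate 2. In Wnt1 culture the counts were 0 and 1 without Wnt1 replicate 1, and the Bmp-induced count was 3 without Wnt1 replicate 2.

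Of 13 E proteins and tissue bHLH factors tested, a group that includes the partners of Id proteins, 3 fell in control culture, where 9.26% of all genes fell, and 2 fell with Wnt1 (6.88%). The E protein Tcf12 read 16748 and 13412 in stalk, 2395 and 5495 in control culture, and 2932 and 5369 with Wnt1 (-2.03 ± 0.45 and -1.90 ± 0.45, SE). The E protein Tcf4 was at -2.56 ± 0.40 and -1.95 ± 0.40, and Tcf21, a bHLH factor of lung mesenchyme, fell in control culture (-1.44 ± 0.35). Hand1, another bHLH factor, was the 1 gene called higher in each culture group, where 17.1% (control) and 9.35% (Wnt1) of all genes were. It passed the filter only through culture. The count of genes that fell was 1 or 0 in both culture groups without either stalk array and with the floor, 1 in control culture without control replicate 1, and 1 in both with the mean of probe sets. Id3 and Id2, by comparison, had changes of 0.16 and 0.18 in control culture minus stalk, and Id1 of 0.39.

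Between tip and stalk, and between Wnt1 and control culture, no gene of these 6 lists was called (limma), where 0% of all genes passed. All 12 receptors and all 7 Tgf-beta-induced genes had negative changes in tip minus stalk, with medians of -0.27 and -0.35 beside 0.01 for all genes. The largest receptor changes were those of Tgfbr3 (-0.85 ± 0.51) and Bmpr2 (-0.55 ± 0.46, SE). Grem1 had the largest change among ligands and antagonists, at 1.08 ± 0.42, with 319 and 223 in tip and 85.7 and 123 in stalk. In Wnt1 minus control culture the medians of the 6 lists lay between -0.13 and 0.21, beside -0.08 for all genes. Tgfbr3 was at -1.42 ± 0.51, Acvrl1, an endothelial type I receptor, at 1.42 ± 0.61, and Smad4 at -1.05 ± 0.40. The Bmp antagonist Sostdc1 read 329 and 150 in control culture and 11.9 and 49.2 with Wnt1. It passed the filter only through the control culture arrays, so its direction here is selected by the filter and no fold is given.

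**Figure D4:**
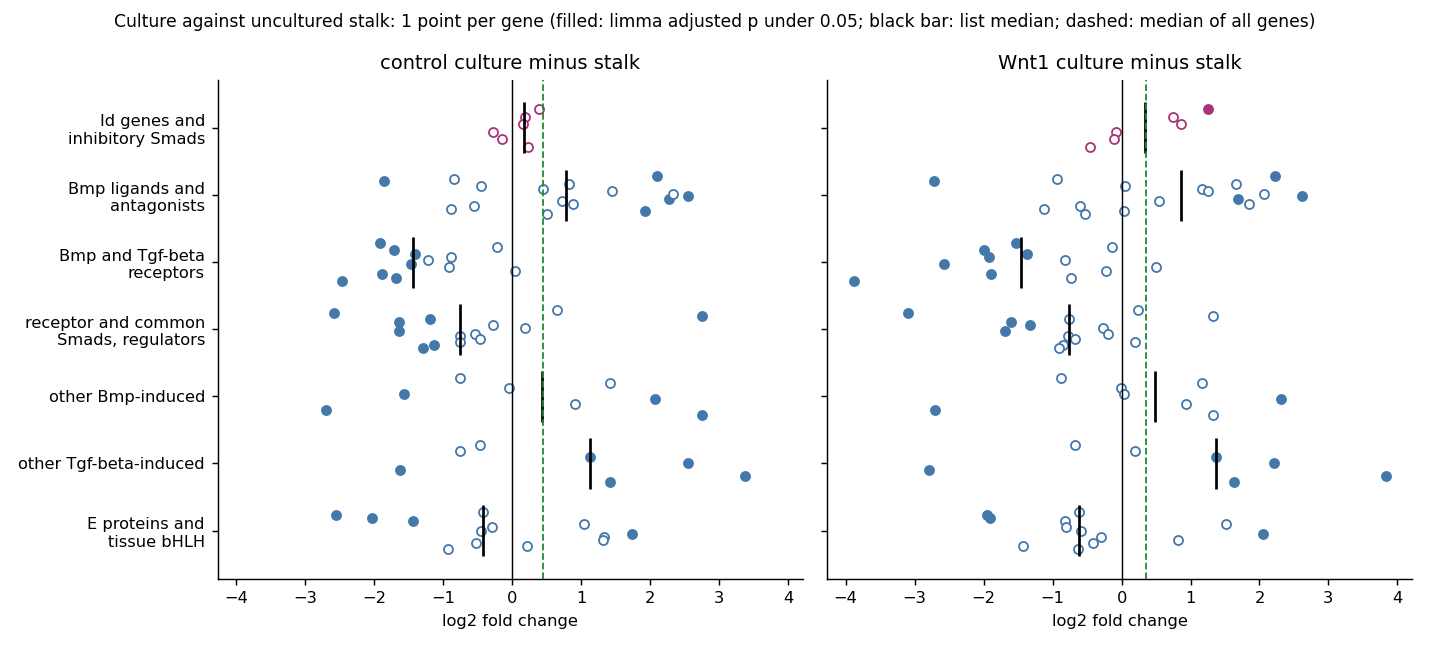
Log2 fold change (x axis) of each member and each gene of 6 pathway lists in control culture minus stalk and Wnt1 culture minus stalk, with filled points for a limma adjusted p under 0.05, black bars for list medians and a dashed line for the median of all genes. The members lie between -0.45 and 1.26, while the receptors have medians of -1.44 and -1.45.

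The genes whose levels over the 8 arrays followed a member most closely were found by the root mean square difference of centred log2 signals. Id1 was closest to Recql, a DNA helicase (difference 0.12), and Zfp511 (0.17), Id3 to Nme1, a nucleoside diphosphate kinase (0.09), and Bex3 (0.11). Nme1 read 28859 on Wnt1 replicate 2 and 10668 to 16196 on the other 7 arrays. That it shares its highest array with Id3 follows from its selection by profile. Id2 was closest to Ybx3 (0.24) and Rmdn2 (0.26), Id4 to Zdhhc20 (0.14) and Rab33b (0.16), Smad6 to Wdr4 (0.11) and Abhd8 (0.13), and Smad7 to Fez1 and Prkce (0.22 for both). The members themselves were left out as candidates. Among the members, Id1 and Id3 had r = 0.795 over the 8 arrays (Pearson, log2 scale), which share 4 groups and the same signal scaling, and Smad6 had r between -0.06 and 0.18 with the brightest probe sets of the other 5 members.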

How the data were processed

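The deposited values are MAS5 signal intensities, computed by the authors with Affymetrix Expression Console per the submitters' processing notes. They cover 45101 probe sets on 8 arrays, are on a linear scale, and have the same 2% trimmed mean on every array. The labels give cDNA from a 2-cycle kit. Probe sets were named by the platform annotation.

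Log2(signal + 44) was fitted with limma 3.58.1 (R 4.3.3; moderated variances followed the mean signal) over all 4 groups. The pseudocount is the 25th percentile of all values, so folds of low genes are understated. Genes needed a signal above 96.6 on 2 arrays, were represented by the probe set with the highest mean, and were called at a Benjamini-Hochberg adjusted p under 0.05. Probe sets had their own fit. An exact permutation test of 2 against 2 arrays cannot go below 0.33. The alternatives covered pseudocount, filter, normalization, probe set choice, variance model, a replicate block and leaving out arrays. The fit was tested on simulated data.

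The members and lists were chosen with earlier results of these data known. From each list and comparison, up to 4 called genes by smallest p were named, or the 2 largest changes where none was called, along with the 2 nearest profiles of each member. Figures used Python 3.11.15 and matplotlib 3.10.9.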

Additional observations from a re-analysis of the deposited data

How the results depend on the processing

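Over 24 alternatives, the 24 member changes gave 576 values, of which 518 kept direction and side of the threshold, 8 lost a call (all Id1 in Wnt1 culture minus stalk, so that 0 members were called with median centring, without the intensity trend and with the signal floor), 6 gained one and 44 changed sign. The cause was not tested except where fewer arrays or genes entered. With the mean of probe sets, Wnt1 culture minus stalk was 0.46 for Id4 and 0.32 for Smad7, control culture minus stalk -0.22 for Id2 and 0.25 for Id4, and tip minus stalk 0.076 for Id4, and 1 gene was called in Wnt1 minus control culture, as with a pseudocount of 16. Median centring, which removes an all-gene shift of 0.45, gave -0.073, -0.28, -0.30 and -0.24 for Id1, Id2, Id3 and Smad7 in control culture minus stalk. Quantile normalization gave Id4 0.18 in Wnt1 culture minus stalk and 0.0013 in tip minus stalk, with 644 genes called in Wnt1 culture (2615 in the reported fit) and 1239 in control culture (4251). With a floor at the highest array median, 330, 728, 59 and 1 genes were called in Wnt1 culture minus stalk, control culture minus stalk, Wnt1 minus control culture and tip minus stalk. Same-numbered arrays were not shown to be pairs (correlations of deviations -0.08 to 0.30, only 2 pairs); with the replicate block 3955 genes were called in Wnt1 culture minus stalk and 1 in Wnt1 minus control culture, Id1 had an adjusted p of 0.0182 against stalk (limma), and no member's call changed.

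Removing 2 arrays left groups of 1, and removing 1 array left 1 such group, so these fits assume that a lone array varies like the others. Without both culture arrays numbered 1, Wnt1 culture minus stalk called 5477 genes and 3 members (Id1, Id2 and Id3), with Id4 at 0.24 and Smad7 at 0.44; Wnt1 minus control culture called 755 genes and 2 members (Id1 and Id3), with Smad7 at 0.094; control culture minus stalk called 7129 genes, with Id3 at -0.15. Without both numbered 2 these comparisons called 9323 genes and 2 members (Id1 and Smad7), 1953 genes, and 9784 genes and 1 member (Id1). Id3 was then at -0.10 and Smad6 at -0.29 in Wnt1 minus control culture, and Id2 at -0.0038 and Smad6 at 0.21 in control culture minus stalk. Leaving out single arrays gave, for tip minus stalk, 0.21 to 0.53 for Id1, 0.053 to 1.01 for Id2, -0.023 to 0.40 for Id3, -0.58 to 0.47 for Id4, -0.27 to 0.031 for Smad6 and -0.68 to 0.30 for Smad7. For Wnt1 minus control culture it gave 0 to 61 genes, 0.55 to 1.19 for Id1, -0.12 to 1.25 for Id2, -0.11 to 0.52 for Id4, -0.32 to 0.40 for Smad6 and -1.57 to 0.21 for Smad7. For control culture minus stalk it gave 61 to 6364 genes, 0.067 to 0.71 for Id1, -0.070 to 0.43 for Id2, -0.15 to 0.47 for Id3, -0.81 to 0.24 for Id4, -0.51 to 0.21 for Smad6 and -0.26 to 0.72 for Smad7. For Wnt1 culture minus stalk it gave 65 to 5561 genes, 0 to 1 members, 1.21 or higher for Id1, 0.060 to 1.43 for Id2, -0.60 to 0.45 for Id4, -0.26 to 0.042 for Smad6 and -1.35 to 0.44 for Smad7. With 2 arrays per group, precision is limited by their number.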
